A study of Mus musculus with 11 samples.

Results

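Mouse chromosome 10 was measured by 8515 array probes of 60 bases or fewer, 5.00% of the 170305 genomic probes on the array. The members are all genomic, non-control probes that the array places on chromosome 10 of mouse build mm9, each taken by its position. The chromosome itself was chosen with earlier results of these data known. Its probes span 126.9 Mb from the first, at position 3014678, to the end of the last, at 129959362, with a median gap of 11.1 kb. Of the 8515 probes, 5591 carry 1 of 974 gene names, and 456 of those names have at least 3 probes.

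The samples were 11 mammary tumours of mice carrying the Pik3ca H1047R mutation (strain Mixed FVBN/Bl6 by the labels), which the labels call biological replicates. Tumour DNA was labelled in Cy5 and compared on 1 array with Cy3-labelled liver DNA of the same animal, which carries the same genotype, so every value is a log2 ratio of tumour over own liver. The labels name neither the promoter that drives the mutant nor the animals' age. Values are centred on the median of each array, so they are relative to the rest of that tumour's genome. The tumours form 1 group (n = 11) on 3 slides, tumours 2, 3 and 8 on slide 1, tumours 4, 7, 9 and 11 on slide 2, and tumours 1, 5, 6 and 10 on slide 3.

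Array comparative genomic hybridisation reads copy number from the competition of tumour and normal DNA for the same probes. A gain of a chromosome in the tumour cells raises all probes of that chromosome, a loss lowers them, and unchanged cells mixed into the sample move either value towards 0. A lower share of changed cells and a smaller change per cell cannot be told apart in such bulk DNA. PIK3CA H1047R is an activating mutation of the catalytic subunit of PI3-kinase, a lipid kinase that signals through AKT to promote growth and survival. Chromosome 10 of the mouse carries receptors such as Esr1, the oestrogen receptor alpha, and Erbb3, an ERBB family receptor that recruits PI3-kinase. It also carries the AKT-inhibited transcription factor Foxo3 and the p53 inhibitor Mdm2.

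Spots of 1 array share their labelling and hybridisation, so their spread is not a replicate error. The noise SD between neighbouring probes ran from 0.13 in tumour 8 to 0.55 in tumour 9, with 0.51 in tumour 11. Between 0.0230% (tumour 6) and 12.4% (tumour 9) of chromosome 10 spots were dim, that is marked by the scanner software as not well above background in the red or the green channel, and none was saturated. Tumour 11 correlated below 0 with tumours 4, 5, 9 and 10 over all probes of the array (r = -0.60, -0.61, -0.65 and -0.32). With tumours 2, 3, 7 and 8 it correlated between -0.22 and -0.04, and above 0 with tumours 1 and 6 (r = 0.08 and 0.25). Its direction is therefore unsettled, although the labels give it the same dyes, and results over tumours are given with its sign turned too.

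Breakpoints divided chromosome 10 most clearly in tumours 2, 3 and 6. The probes on both sides of each place are printed here because the segmentation set the step between them. Each place is an estimate, because single probes vary and need not show the level of their side. The probe printed as the first gained one after the inner part of tumour 6, for example, stood at 0.07. The deposited data give the position of the probes but no strand. In tumour 2 a loss began between 2 probes of the span of Foxo3, at chr10:41906649-41906708 and chr10:41918365-41918424. The first of these was the only Foxo3 probe before the loss and stood at 1.03 in tumour 2. The place inside Foxo3 therefore rests on 1 outlying probe.
Last probe before the loss: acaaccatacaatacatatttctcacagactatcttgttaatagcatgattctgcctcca
First probe of the loss: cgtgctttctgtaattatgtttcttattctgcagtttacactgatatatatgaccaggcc

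It ended between probes at chr10:49920099-49920158 and chr10:49970722-49970781, which have no gene name and lie between AK047467 and Ascc3.
Last probe of the loss: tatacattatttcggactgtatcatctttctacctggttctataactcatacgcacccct
First probe after the loss: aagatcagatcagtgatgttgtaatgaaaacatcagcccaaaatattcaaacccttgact

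In tumour 3 a step lay inside the span of Scml4, between chr10:42631289-42631348 and chr10:42642316-42642375.
Last probe of the higher side: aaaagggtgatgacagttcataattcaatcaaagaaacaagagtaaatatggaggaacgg
First probe of the lower side: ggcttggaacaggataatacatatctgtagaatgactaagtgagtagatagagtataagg

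In tumour 6 the gain stopped between 1700040L02Rik and Tmem26, at chr10:68127008-68127067 and chr10:68150079-68150138.
Last gained probe: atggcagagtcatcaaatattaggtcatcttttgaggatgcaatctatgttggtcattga
First probe without gain: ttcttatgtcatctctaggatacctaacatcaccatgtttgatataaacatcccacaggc

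It resumed inside the span of the transcript ENSMUST00000058942, just before Bicc1, at chr10:70361670-70361729 and chr10:70372495-70372554.
Last probe without gain: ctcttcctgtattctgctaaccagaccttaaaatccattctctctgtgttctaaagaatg
First gained probe: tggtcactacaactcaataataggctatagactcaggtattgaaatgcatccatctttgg

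It ended for the rest of the chromosome inside the span of Grip1, at chr10:119339366-119339425 and chr10:119347020-119347079.
Last gained probe of tumour 6: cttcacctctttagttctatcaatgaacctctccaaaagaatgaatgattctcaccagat
First probe after it: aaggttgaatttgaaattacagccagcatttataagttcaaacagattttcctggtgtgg

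Chromosome 10 was gained in 1 tumour and lost in 2 others, and it was the only autosome of 19 called as a whole in both directions among the 11 tumours. The mean log2 ratio of its probes was 0.19 in tumour 6, -0.32 in tumour 7 and -0.29 in tumour 8. These are tumour over liver ratios of 1.14, 0.799 and 0.816. In the other 8 tumours the mean lay between -0.03 (tumour 9) and 0.03 (tumour 11). The mean of the chromosome was thus far from 0 in 3 tumours and close to it in 8, with no tumour in between. Those 8 are not alike. Tumour 3 averages a part at 0.12 and a part at -0.05. Tumours 9 and 10 had almost no calls on any autosome, with 0.00619% and 0.0111% of autosomal probes in lost segments and 0 in gained ones.

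A segment was called gained or lost when it had at least 10 probes and a mean of at least 0.2 from 0, and the chromosome was called as a whole at 80% of its probes. In tumour 6, 89.2% of the chromosome 10 probes lay in gained segments, against 10.8% of all autosomal probes of that tumour. In tumour 7, 99.7% lay in lost segments, against 25.7% of autosomal probes. Tumour 8 also had 99.7% in lost segments, against 20.5% of autosomal probes. The call depends on the threshold in tumours 6 and 8, because at a threshold of 0.3 only tumour 7 kept a whole-chromosome call.

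The directions did not rest on the median of the array as the zero. Set against the median of the other autosomes with under 50% of their probes in calls, an alternative added after the data were seen, chromosome 10 lay at 0.22 in tumour 6. It lay at -0.38 in tumour 7 and -0.31 in tumour 8. The other 8 tumours lay between -0.04 and 0.01 on this scale, so the same 3 tumours stood out.

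The spread between tumours was wide on chromosome 10. Its highest mean (tumour 6) lay 0.516 above its lowest (tumour 7), the widest range of the 19 autosomes, and the SD over tumours was 0.145, also the largest. Chromosome 16 came next with a range of 0.511, so the first 2 places are close. Of the 19 autosomes, 12 had a whole-chromosome call in at least 1 tumour, 11 gains and 10 losses in all. Within its own tumour, chromosome 10 had the third highest mean of the 19 autosomes in tumour 6, the lowest in tumour 7 and the second lowest in tumour 8.

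**Figure D1:**
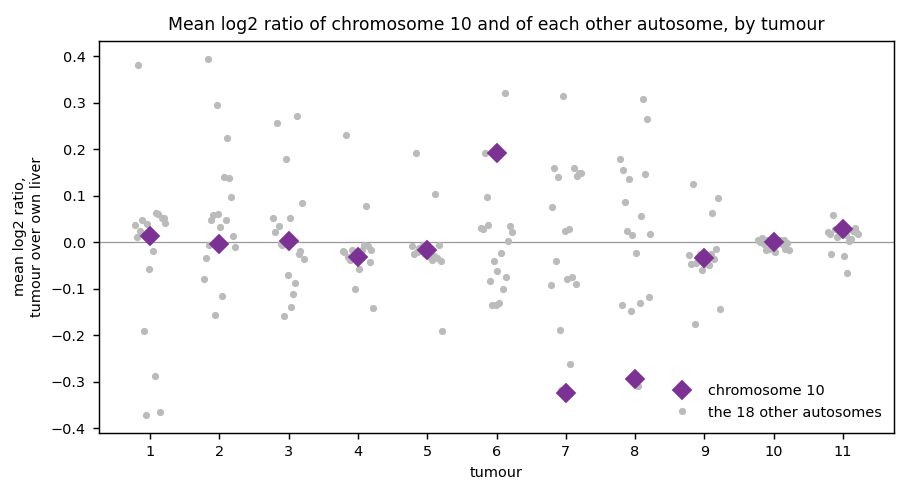
Mean log2 ratio of tumour over own liver (y axis) for chromosome 10 (purple diamonds) and each of the 18 other autosomes (grey points) in the 11 tumours (x axis). Chromosome 10 lies at 0.19 in tumour 6 and at -0.32 and -0.29 in tumours 7 and 8, and between -0.03 and 0.03 elsewhere.

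Over the tumours as a group, the mean of chromosome 10 was not past the threshold of the test. The mean over the 11 tumours was -0.04 ± 0.15 (SD), with 4 tumours above 0 and 7 below. An exact two-sided sign-flip permutation test gave p = 0.309, and 0.463 after Benjamini-Hochberg adjustment over 20 chromosomes. With tumour 11 turned, 3 tumours were above 0 and 8 below, and the mean was -0.05 (permutation test, adjusted p = 0.483). Within slides the mean was -0.10 on slide 1, -0.09 on slide 2 and 0.05 on slide 3. The 2 tumours with a whole loss lay on slides 1 and 2 and the tumour with a whole gain on slide 3.

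Along the chromosome, the losses were even and the gain was not. Of the 127 bins of 1 Mb, all 127 were at or below -0.2 in tumour 7, where 24.6% of autosomal bins were. All 127 were also at or below -0.2 in tumour 8, against 21.0% of autosomal bins. In tumour 6, 103 bins were at or above 0.2, against 11.6% of autosomal bins. The SD over bins was 0.042 in tumour 7 and 0.034 in tumour 8, and 0.115 in tumour 6. The loss of tumour 7 was called as 2 segments and that of tumour 8 as 16, which averaged between -0.45 and -0.21. In the other 8 tumours the SD over bins ran from 0.034 to 0.094.

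**Figure D2:**
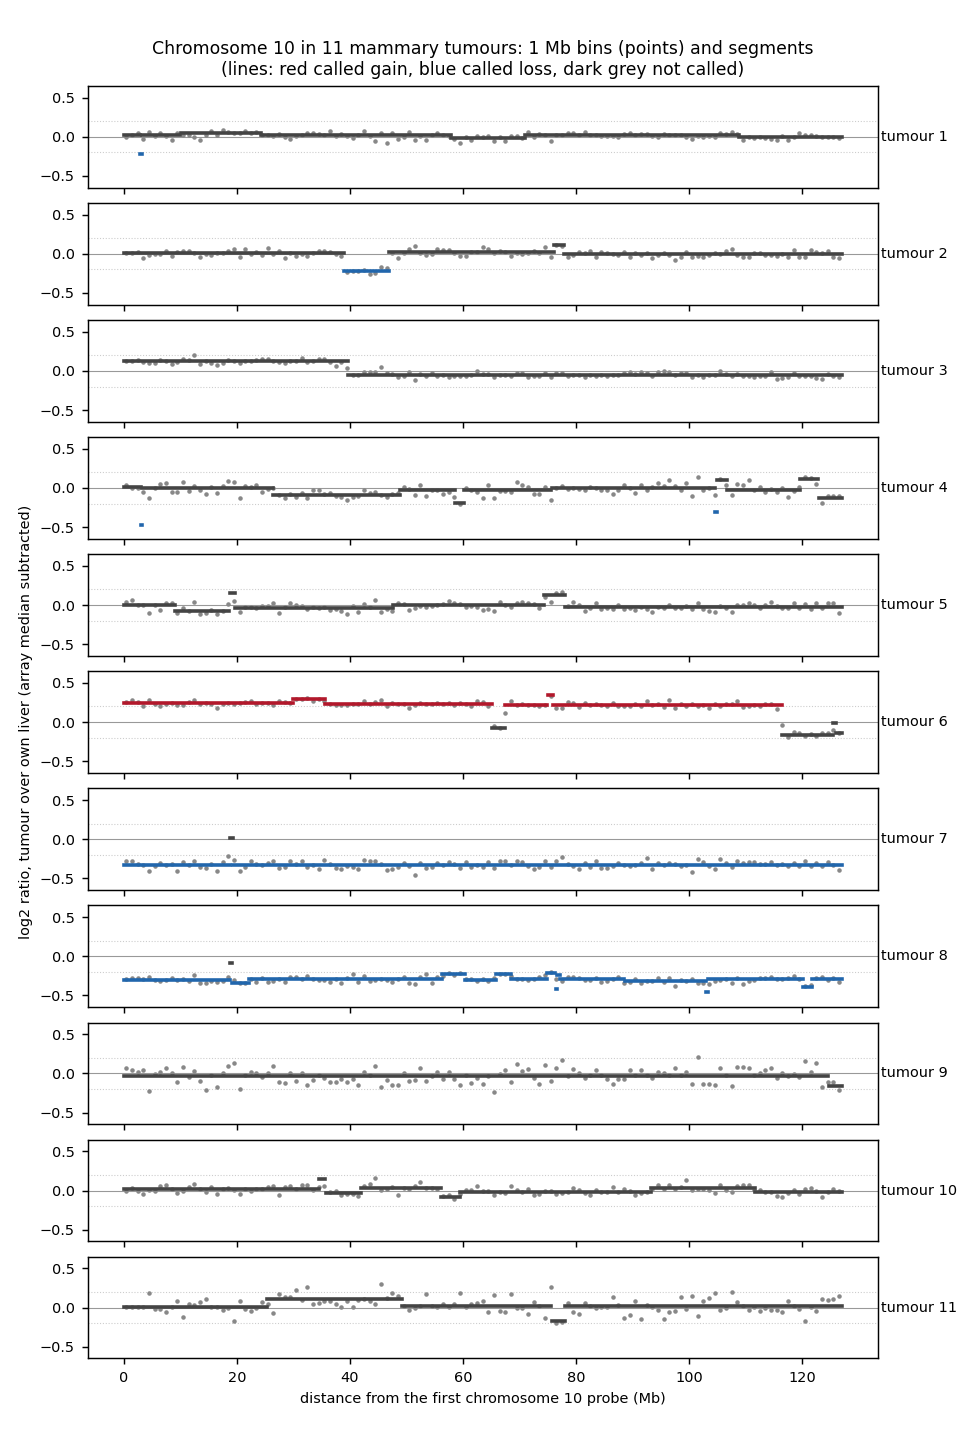
Log2 ratio of tumour over own liver (y axis) along chromosome 10, as distance from its first probe in Mb (x axis), with 1 panel per tumour. Points are 1 Mb bins and lines are segments of at least 10 probes, red where called gained and blue where called lost. Tumour 6 is gained except in 2 stretches, tumours 7 and 8 are lost throughout but for short stretches, tumour 2 has a loss of 8.0 Mb, and tumour 3 has a step without a call.

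Single genes followed the chromosome in these 3 tumours. Of the 456 genes with at least 3 probes, 280 were at or above 0.2 in tumour 6, against 10.7% of autosomal genes. In tumour 7, 404 were at or below -0.2, against 25.2% of autosomal genes, and in tumour 8 the number was 402, against 23.2%. In all, 223 genes of chromosome 10 were at or above 0.2 in tumour 6 and at or below -0.2 in tumours 7 and 8. Only 224 autosomal genes, 2.49% of the 9007 with at least 3 probes, met these conditions, so 1 gene lay elsewhere. The 3 tumours were picked by their chromosome calls, so these counts describe the calls at gene level and are no further evidence for them.

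Tumour 6 gained 2 long stretches and left 2 parts of the chromosome out. The first gained stretch, of 65.1 Mb and 4276 probes, averaged 0.24 ± 0.14 (SD over probes), and the second, of 49.0 Mb and 3316 probes, averaged 0.22 ± 0.13. All 221 genes with at least 3 probes in the first and all 189 in the second were above 0, against 415 of the 456 on the chromosome. Gene counts here and for the parts left out were grouped by the segments themselves, so they describe the segments. Between them lay 2.21 Mb (163 probes) with a mean of -0.08 ± 0.14. The last 10.6 Mb (760 probes) averaged -0.15 ± 0.16. Its main segment (626 probes) was at -0.16, short of a loss call at 0.2 but past the lower alternative threshold of 0.15. The median of the other autosomes with few calls was -0.02 in tumour 6, so the last part lay further below it than the inner part did. All 3 steps were found again within 1 Mb under each of 8 alternative settings of the signal and the segmentation. Of these, mode centring, which subtracts 1 constant per array, and the turned sign of tumour 11 could not move a step in any tumour. The match allows 1 Mb, so it does not show that the exact places were kept.

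The inner part held 9 genes with at least 3 probes, of which 7 were below 0 in tumour 6 and none reached -0.2. Ank3, which codes for ankyrin-G, a protein that anchors channels in the membrane, had 52 probes and a value of -0.10. Ccdc6, known as a fusion partner of the RET kinase in human thyroid cancer, was at -0.16 in tumour 6. Cdk1 (named Cdc2a on the array), the kinase that drives entry into mitosis, was at -0.21 from 2 probes. In the tumours with whole losses these genes were low with the rest of the chromosome, Ank3 at -0.29 in tumour 7 and -0.24 in tumour 8. Ccdc6 and Cdk1 were chosen after their values were seen.

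The last part of tumour 6 began inside Grip1 and held 35 genes with at least 3 probes, 34 of them below 0 and 11 at or below -0.2, against 5.91% of all autosomal genes of tumour 6. Helb, a DNA helicase, was lowest at -0.33. Irak3, an inhibitor of Toll-like receptor signalling, was at -0.27. Hmga2, an architectural chromatin protein of embryonic and tumour tissue, was at -0.25 and Erbb3 at -0.27, from 10 and 3 probes. The interval that holds Cdk4, a cyclin D-dependent kinase, was at -0.23 from 5 probes. Genes before the breakpoint were on the gained side, with Frs2, an adaptor of FGF receptors, at 0.22 and Mdm1 at 0.25. Mdm2 lies between Frs2 and Mdm1, inside a called gained segment (mean 0.22, 2660 probes), but its 2 probes averaged 0.00 in tumour 6. The gain of tumour 6 thus ended beyond Mdm1 and Frs2 and before Hmga2. Irak3, Hmga2, Erbb3, Cdk4, Frs2, Mdm1 and Mdm2 go beyond the 35 list genes that the naming rule allows and were chosen after their values were seen.

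Both parts left out of the gain were low in tumours 7 and 8 and near 0 in the other 8 tumours. The last part averaged -0.33 in tumour 7 and -0.29 in tumour 8, within 0.003 of the mean of the whole chromosome there. In the other 8 tumours it lay between -0.07 and 0.05. The inner part averaged -0.30 in tumour 7 and -0.23 in tumour 8, and between -0.07 and 0.02 in the other 8. No step of at least 0.2 lay within 1 Mb of these places in any other tumour.

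**Figure D3:**
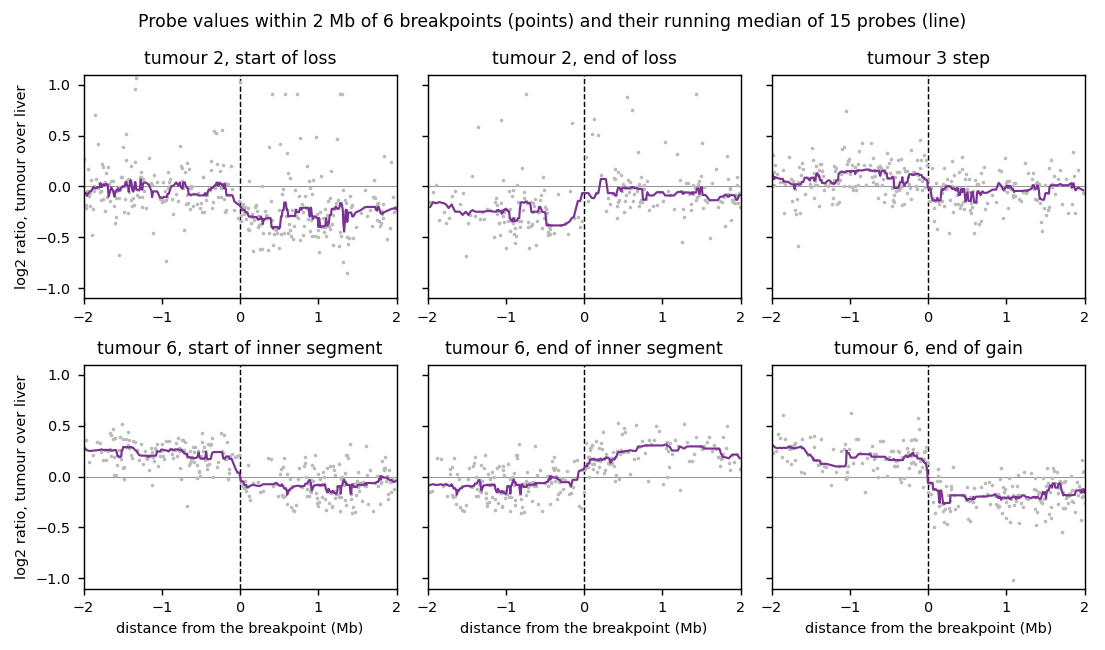
Log2 ratio of tumour over own liver (y axis) of single probes (points) and their running median over 15 probes (line) within 2 Mb of 6 breakpoints (x axis, distance from the midpoint of the flanking probes). The level falls by 0.31 and 0.38 where the gain of tumour 6 stops, rises by 0.29 where it resumes, and shifts by -0.22, 0.24 and -0.17 at the breakpoints of tumours 2 and 3. In the panel at the end of the tumour 2 loss, 3 probes lie outside the y range.

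Tumour 2 had a loss of 8.0 Mb and 444 probes with a mean of -0.22 ± 0.30 (SD over probes), in a chromosome that was mostly near 0. Further along, 1.81 Mb (189 probes) averaged 0.12, short of a call. The flanks averaged 0.01 (2566 probes) and 0.02 (2093 probes). Both ends were found within 1 Mb under all 8 alternative settings, counting the 2 that could not move them. Lost segments took 5.22% of the chromosome 10 probes in tumour 2, against 1.03% of its autosomal probes. Of the 24 genes with at least 3 probes inside the loss, 23 were below 0 and 13 at or below -0.2, against 5.66% of autosomal genes at or below -0.2 in tumour 2. These genes were picked by the segment itself, so their counts describe it. The same genes were also mostly below 0 in tumours 4 and 9, which had no called segment there, 23 of 24 in tumour 4 and 21 in tumour 9. Their medians there were -0.14 and -0.10, against -0.21 in tumour 2. In tumours 5 and 10, 19 and 17 were below 0, and in tumour 11, 22 were above 0 (below 0 turned). Of all 456 genes of the chromosome, 266, 246, 277 and 253 were below 0 in tumours 4, 9, 5 and 10.

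The lost genes of tumour 2 were of several kinds. Lin28b, which blocks maturation of let-7 microRNAs, was at -0.33 in tumour 2 and between -0.11 and 0.17 in the other tumours without a whole-chromosome call. Hace1, an E3 ubiquitin ligase known as a tumour suppressor, was at -0.24. Both genes have 9 or more probes, all inside the loss. Prdm1, the repressor BLIMP1 of lymphocyte differentiation, was at -0.33 from 2 probes, and the interval of Cd24a, a surface glycoprotein of mammary epithelium, was at -0.29. Atg5, a component of autophagosome formation, was at -0.30 and Lace1 at -0.34. Foxo3 averaged -0.12 over its 10 probes, of which only the first, at 1.03, lies before the loss. That mean therefore understates how low its probes inside the loss were. Grik2, a kainate receptor subunit, was at -0.16 over 70 probes. Sec63 and Bend3, inside the loss, were at -0.01 and 0.04. Cd24a, Atg5 and Bend3 were chosen after their values were seen.

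Tumour 3 had a step at nearly the same place. The part before it averaged 0.12 ± 0.16 over 2641 probes and the part after it -0.05 ± 0.17 over 5872 probes, so neither reached the threshold of 0.2. The breakpoint lies 0.713 Mb after the start of the tumour 2 loss. Of the genes with at least 3 probes, 126 of 131 before the step were above 0, and 241 of 324 after it were below 0. Over all 456 genes of the chromosome, 210 were above and 246 below 0 in tumour 3. The genes were grouped by the step itself, so their counts describe it. The step was listed under a rule added after the data were seen, which takes steps of at least 0.1 between segments of at least 100 probes. It was found within 1 Mb under all 8 alternative settings, counting the 2 that could not move it. The same rule also listed steps after position 80890904 in tumour 2 (-0.12), 81001955 in tumour 5 (-0.16) and 80986185 in tumour 11 (0.19). These were found under 8, 8 and 4 of the 8 settings. The mean over the whole chromosome in tumour 3 was 0.00.

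The proximal and distal parts of the chromosome, taken on both sides of 65 Mb, differed by less than the spread between tumours. Their difference, proximal minus distal, was 0.02 ± 0.05 (SD, n = 11), above 0 in 6 of 11 tumours (5 with tumour 11 turned), and an exact two-sided sign-flip permutation test gave p = 0.357, where the smallest possible is 0.000977. Within slides it was 0.03 on slide 1, -0.01 on slide 2 and 0.02 on slide 3. The proximal part averaged 0.06 in tumour 3, against -0.05 for the distal part, the largest difference (0.11). It averaged 0.24 in tumour 6, against 0.15 for the distal part. In tumours 7 and 8 both parts were alike, at -0.33 and -0.29 proximally, against -0.32 and -0.29 distally.

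Receptors and ligands on the chromosome had 17 measured members. Members of this and the next lists needed only 1 probe, while the 456 genes set beside them have at least 3. In tumour 6 their median was 0.20, with 9 at or above 0.2, and over the 456 genes of the chromosome the median was 0.22. In tumour 7 the median was -0.34 with 16 at or below -0.2, and in tumour 8 it was -0.33 with all 17, while the chromosome medians were -0.32 and -0.30. The same thresholds were met by 61.4%, 88.6% and 88.2% of the 456 genes in tumours 6, 7 and 8. Esr1 was at 0.26 in tumour 6, -0.33 in tumour 7 and -0.32 in tumour 8, over 37 probes, and between -0.05 and 0.11 in the other 8 tumours. Esr1 thus followed the chromosome in all 3 tumours. The receptor tyrosine phosphatases Ptprk and Ptprr were at 0.20 and 0.25 in tumour 6, at -0.30 and -0.36 in tumour 7, and at -0.35 and -0.28 in tumour 8. Ros1, a receptor tyrosine kinase, was at 0.26, -0.51 and -0.28 in the same tumours, and Lgr5, an R-spondin receptor of stem cells, at 0.19, -0.35 and -0.26. None of these 5 receptors went against its chromosome in these tumours. Erbb3, of the same list, did so in tumour 6, at -0.27 in the last part without gain. These lists and their members were chosen with earlier results of these data known.

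Kinases and signalling genes had 25 measured members. Their median was 0.20 in tumour 6, -0.36 in tumour 7 and -0.33 in tumour 8, with 11, 22 and 23 past 0.2 in the direction of the chromosome, against 61.4%, 88.6% and 88.2% of the 456 genes. Map3k5, the stress kinase ASK1, was at 0.21 in tumour 6, -0.40 in tumour 7 and -0.32 in tumour 8. Fyn, a SRC family kinase, was at 0.20, -0.27 and -0.29 in these tumours, and Sgk1, a kinase related to AKT, at 0.25, -0.31 and -0.32. These 3 kinases had the sign of the chromosome in each of the 3 tumours. Hk1, a hexokinase of glycolysis, was at 0.26, -0.32 and -0.21, and Bcr at 0.23, -0.30 and -0.33. Frk, a SRC-related kinase, was at 0.23, -0.24 and -0.28. Foxo3 was at 0.24 in tumour 6, -0.37 in tumour 7 and -0.38 in tumour 8, so its direction differed between tumours as that of the chromosome did. Of the 25 members, 2 were at or below -0.2 in tumour 6, against 2.41% of the 456 genes, the lowest of them Irak3 at -0.27.

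Transcription and chromatin genes had 26 measured members, with medians of 0.20 in tumour 6, -0.30 in tumour 7 and -0.34 in tumour 8. Hivep2, a zinc finger protein, was at 0.25 in tumour 6, -0.23 in tumour 7 and -0.36 in tumour 8, and Eya4 at 0.18, -0.34 and -0.39. Both followed the chromosome. Arid5b was at 0.18, -0.32 and -0.45, and Jmjd1c, a jumonji family protein, at 0.28, -0.34 and -0.34. Ncoa7 was at 0.25, -0.30 and -0.29, and Sim1 at 0.19, -0.36 and -0.25. All 6 of these genes had the sign of the chromosome in these 3 tumours. In tumour 6, however, 3 of the 26 members were at or below -0.2, against 2.41% of the 456 genes. The lowest was Stat2 at -0.26, chosen after its value was seen. Jmjd1c was also at 0.37 in tumour 2, above its value in every other tumour, and no segment was called there.

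Genes of the p53 pathway, apoptosis and tumour suppression had 17 measured members, with medians of 0.20, -0.34 and -0.30 in tumours 6, 7 and 8. Apaf1, the core of the apoptosome, was at 0.22 in tumour 6, -0.21 in tumour 7 and -0.22 in tumour 8. Cradd, a death-domain adaptor, was at 0.18, -0.27 and -0.33. Both genes promote cell death and had the sign of the chromosome in each of the 3 tumours. Rev3l, the catalytic subunit of the translesion DNA polymerase zeta, was at 0.26, -0.41 and -0.39, and Sash1 at 0.17, -0.39 and -0.37. Hace1 was at 0.32, -0.33 and -0.29, and Epb4.1l2 at 0.25, -0.31 and -0.36. The lowest of the 17 in tumour 6 was Rassf3 at -0.16, chosen after its value was seen.

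Large late-replicating genes had the most probes, 14 members with at least 34 probes each. All 14 were at or below -0.2 in tumours 7 and 8, and 9 at or above 0.2 in tumour 6, against 88.6%, 88.2% and 61.4% of the 456 genes in tumours 7, 8 and 6. Ctnna3, an alpha catenin with 159 probes, was at 0.23 in tumour 6, -0.31 in tumour 7 and -0.27 in tumour 8. Nkain2 was at 0.25, -0.32 and -0.29, and Anks1b at 0.23, -0.31 and -0.28. These 3 genes have over 100 probes each and differed little from each other within each tumour. Pcdh15, a protocadherin, was at 0.24, -0.28 and -0.29, and Lama2, the laminin alpha 2 chain, at 0.25, -0.32 and -0.34. Ank3 and Grip1 were lower than the other 12 in tumour 6, at -0.10 and 0.09, where the first lies in the inner part and the second spans the last breakpoint.

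Over all 5 lists, 45 of 99 genes were at or above 0.2 in tumour 6 and at or below -0.2 in tumours 7 and 8, and 82 had these signs at any size. Of the 456 genes, 415 were above 0 in tumour 6, 453 below 0 in tumour 7 and 455 below 0 in tumour 8. The same thresholds held for 48.9% of the 456 chromosome 10 genes, a share close to that of the lists. In tumours 7 and 8 the list gene furthest below 0 had 1 probe, Ifng with -0.93 in tumour 7 and Dusp6 with -0.81 in tumour 8, and both were chosen after their values were seen.

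**Figure D4:**
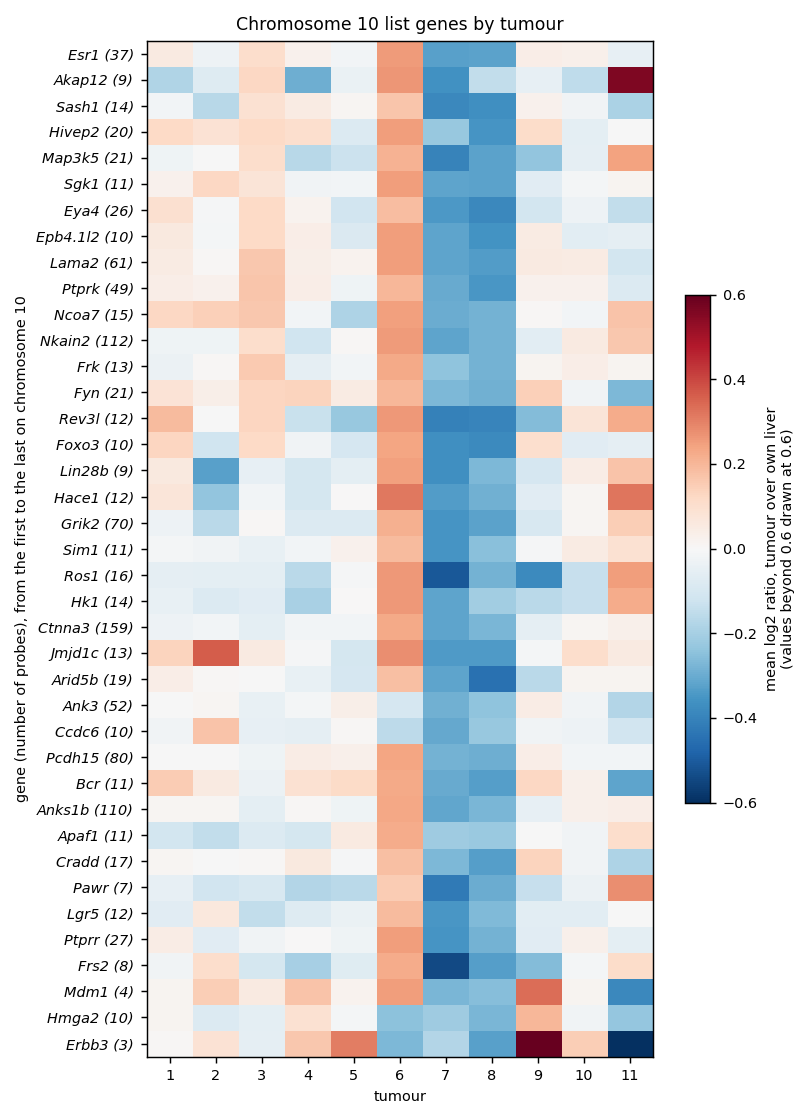
Mean log2 ratio of tumour over own liver (colour, red above 0 and blue below) of 39 list genes with at least 3 probes, from the first to the last on the chromosome (rows), in tumours 1 to 11 (columns). The column of tumour 6 is red down to Mdm1 except for Ank3 and Ccdc6, and the columns of tumours 7 and 8 are blue throughout.

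Short segments within the losses and in the quieter tumours were less stable. In tumour 7 a stretch of 0.579 Mb (23 probes) between Sgk1 and Slc2a12 averaged 0.01, against -0.32 for the chromosome. In tumour 8 a stretch of 15 probes within it averaged -0.08, against -0.29. It holds Raet1a, which codes for a ligand of the NKG2D receptor of natural killer cells and had 12 probes. Raet1a was at -0.05 in tumour 7 and -0.08 in tumour 8, and above 0 in all other tumours except tumour 11, where it was at -0.15, or at 0.15 turned. It reached 0.33 in tumour 6 and 0.41 in tumour 9. The boundaries of the tumour 7 stretch were found within 1 Mb under 6 of 8 alternative settings and those of tumour 8 under 5. These counts include mode centring and the turned tumour 11, which could not move a boundary.

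Near the start of the chromosome, tumours 1 and 4 had short called losses of 20 and 15 probes. They took 0.235% of the chromosome 10 probes in tumour 1, against 20.2% of autosomal probes in lost segments there. In tumour 4 all lost segments of the chromosome took 0.493%, against 2.74%. The short losses averaged -0.22 in tumour 1 and -0.47 in tumour 4. Akap12, a scaffold of protein kinases A and C, lies there and was at -0.18 in tumour 1 and -0.30 in tumour 4. The 15 probes of tumour 4 averaged -0.33 in tumour 9 and 0.67 in tumour 11. Tumour 4 also had a loss of 27 probes at Ppp1r12a and Pawr, a proapoptotic protein, with a mean of -0.31. Those probes averaged -0.47 in tumour 9 and 0.38 in tumour 11. At the vomeronasal receptor genes Vmn2r80 and Vmn2r81, 7 probes averaged -0.59 in tumour 4, -1.02 in tumour 9 and 1.07 in tumour 11. The 7 probes also averaged -0.31 in tumour 5 and -0.76 in tumour 7, whose chromosome mean was -0.32. Apart from tumour 11, only tumour 6 was above 0 there, at 0.30. Tumours 4 and 9 correlated at r = 0.78 over all probes of the array, and each correlated below 0 with tumour 11, as given above. Tumour 5, on slide 3, correlated with tumours 4 and 9 at r = 0.71 and 0.74, and tumours 7 and 10 did so between 0.47 and 0.48. The part of this shared pattern in the short losses was not tested.

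Tested over all 11 tumours, few places stood apart from 0. A call by limma needed a mean log2 ratio 0.1 or more from 0 with an adjusted p under 0.05, and none of the 127 bins of 1 Mb met this in either direction. Over all 2538 bins of the genome limma called 9.93% higher and 3.47% lower. Without tumour 11, 4 bins of chromosome 10 were called lower, as were 4 with it turned, and 1 was called without tumour 1 or tumour 2. At an unadjusted p under 0.05 there were 7 bins of chromosome 10, against 24.7% of all bins. Of the 456 genes it called 1 higher, against 4.60% of all 9377 genes tested, and 7 lower, against 2.29%.

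The 7 lower genes were ENSMUST00000020363, Helb, Irak3, 5830405N20Rik, Tbc1d30, Lemd3 and Smarcc2, listed after their values were seen. Helb averaged -0.20 (SE 0.04, limma adjusted p = 0.0187) and was below 0 in 10 of 11 tumours, with 0.04 in tumour 11, and in all 11 with tumour 11 turned. Irak3 averaged -0.19 (SE 0.04, limma adjusted p = 0.0212) and was below 0 in all 11, or in 10 with tumour 11 turned. Turned, both kept a limma adjusted p under 0.05. Tbc1d30 and Zufsp, the 1 higher gene, did not keep it (limma adjusted p = 0.0742 and 0.110). All 7 lower genes but ENSMUST00000020363 lie in the last part of the chromosome, which tumour 6 left out of its gain. Smarcc2 codes for a subunit of the SWI/SNF chromatin remodelling complex. The 8 calls depended on single tumours and numbered 1 without tumour 3 or tumour 6, 3 without tumour 4, 4 without tumour 1, 2 or 7, and 5 without tumour 5 or 8. Without tumour 11 they numbered 27, and with it turned 38.

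Against the mean of the chromosome in each tumour, limma called 2 genes higher, against 0.160% of all genes tested, and 1 lower, against 0.0960%. Zufsp, a deubiquitinase of genome maintenance, lay 0.23 above the chromosome mean (SE 0.03, limma adjusted p = 0.0124) in 11 of 11 tumours, or in 10 with tumour 11 turned (0.18 above, limma adjusted p = 0.0419). Its own log2 ratio was lowest at -0.17 in tumour 8 and highest at 0.33 in tumour 6. ENSMUST00000020363 lay 0.21 below (mean -0.21, SE 0.03, limma adjusted p = 0.0124), in 11 of 11 tumours, or in 10 with tumour 11 turned (mean -0.20, limma adjusted p = 0.0146). Caps2 lay 0.13 above (SE 0.02, limma adjusted p = 0.0469), in 10 of 11, or in 9 with tumour 11 turned, where it was not called (0.09 above, limma adjusted p = 0.0794). Zufsp and ENSMUST00000020363 have 3 probes each and Caps2 has 6. With genes of at least 5 probes as the ones tested, none was called against the chromosome mean, and without tumour 3 none was called either, while without tumour 11 the calls numbered 26. With tumour 11 turned the calls were 13 higher and 15 lower.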

How the data were processed

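Tumour and liver DNA were hybridised on 2-colour Agilent arrays, 1 per tumour. Per the submitters' processing notes, Agilent Feature Extraction 10.5.1.1 read the images and Partek (version not given in the sources used here) made the values. Version 11.0.1.1 is given for tumours 4, 7, 9 and 11 per the file headers. The deposited scanner files hold processed red and green intensities per spot, background subtracted and dye normalized by the authors' software, and their log10 ratio. The deposited value table holds each probe's mean log ratio on a log2 scale, not centred, with medians from -0.0490 to 0.0213. In the scanner files the log10 ratio, per the file headers LogRatio, was 0 at 140 chromosome 10 spots of tumour 2 and at up to 13 elsewhere, and the intensity ratio was used.

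The log2 of processed red over green intensity was averaged per probe without outlier spots and centred on the array median. Segments came from exact optimal partitioning per chromosome (penalty 2 times the natural log of the probe number times the variance of the noise, at least 5 probes, single probes pulled in to 4 SD of a running median of 11). Breakpoints are steps of at least 0.2. Exact two-sided sign-flip permutation tests served for chromosome means, and limma intercept fits for bins (at least 5 probes) and genes (at least 3), with calls at an adjusted p under 0.05 and a mean 0.1 or more from 0. Python 3.11.15 with numpy 2.4.6, pandas 2.3.3, numba 0.67.0 and matplotlib 3.10.9, and limma 3.58.1 and statmod 1.5.0 in R 4.3.3, were used, and the steps were tested on simulated data. Normexp, an alternative, used median instead of mean spot signals, because the arrays of slide 2 were deposited without the mean signals.

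A gene's value is the mean of the probes that bear its name on the array. Of 116 list genes, 99 had named probes, 14 took the value of the interval between neighbouring genes and 3 had none. A gene table of a later build, GRCm38.p6, served for current names and neighbours only, and matched 681 of the 974 array names. The values of 1 list gene are not reported here. Positions are those of the array on mm9, and no other mm9 annotation was used, so exons and introns are not given. The members, lists and named genes were chosen with earlier results of these data known. Named were at most 35 list genes (up to 6 per list by probe number, then those in called segments of at most 20 Mb), neighbours of breakpoints, up to 3 genes in called segments of at most 10 Mb, and genes called against their chromosome. The labels call the tumours biological replicates, and 1 array per tumour limits the precision.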

Additional observations from a re-analysis of the deposited data

How the results depend on the processing

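The mean of chromosome 10 over tumours kept its direction and stayed short of the threshold under every signal, centring, sign and leave-one-out setting, between -0.07 and -0.01 without single tumours, as did the proximal minus distal difference (0.01 to 0.02). The whole-chromosome calls of tumours 6, 7 and 8 held under every signal and penalty setting. At a threshold of 0.3 the whole gains were 0 and the whole losses 1, and leaving out single tumours gave 0 to 1 gains and 1 to 2 losses. Called against the autosomes with few calls, 6 segments were gained and 22 lost. Gained segments (6) numbered 35 at a penalty factor of 1, 2 at 4, 1 at a threshold of 0.3 and 0 to 6 without single tumours. Lost segments (22) numbered 10 with normexp, 129 at a penalty factor of 1, 6 at 4, 10 at a threshold of 0.3 and 6 to 22 without single tumours. Breakpoints (30 steps of at least 0.2) numbered 343 at a penalty factor of 1, 5 at 4 and 17 with the added rule. The bins called by limma (0) numbered 1 with the authors' value table, 3 at 0.5 Mb, 2 with the slide as a random block, 4 with tumour 11 turned and 0 to 4 without single tumours. The genes called (8) numbered 17 with at least 1 probe, 3 with at least 5, 4 with mode centring, 17 with the slide as a block, 38 with tumour 11 turned, and 1 to 27 without single tumours. The genes called against their chromosome (3) numbered 13 with at least 1 probe, 0 with at least 5, 14 with normexp, 26 with the slide as a block, 28 with tumour 11 turned, 1 without dim probes, and 0 (without tumour 3) to 26 (without tumour 11). The cause of these changes was not tested. No paired analysis was possible because the 11 tumours form 1 group and each is already set against its own liver.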
